A study of Marmota monax with 203 samples.

Results

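Blood clots form when a cascade of liver-made proteases cuts prothrombin to thrombin and thrombin cuts fibrinogen to fibrin, and they are dissolved when plasminogen is activated to plasmin. The 33 genes described here encode the proteins of this system, and they were chosen by name: tissue factor and the contact factors, the intrinsic and common cascade, the clot itself, the natural anticoagulants, and the fibrinolytic enzymes with their receptors and inhibitors. Of these, 32 were among the 17587 genes with reads in the liver libraries, and PROZ was not analysed here.

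The livers were those of woodchucks (Marmota monax) with chronic woodchuck hepatitis virus (WHV) infection, a model of chronic hepatitis B, and poly(A) RNA of repeated biopsies was sequenced. All animals of both groups carried WHV from neonatal infection, and both groups held females (animal names beginning with F) and males (M). The placebo group received placebo injections under the skin, and the wIFN-α group received recombinant woodchuck IFN-α5, 20 μg per animal at the biopsies of weeks 0 and 3 (low dose) and 100 μg at weeks 7, 11 and 15 (high dose), while weeks -3, 19 and 23 were without dosing. At weeks -3, 0, 3, 7, 11, 15, 19 and 23 there were 12, 12, 12, 12, 10, 9, 5 and 9 placebo biopsies and 11, 11, 9, 9, 8, 8, 6 and 6 wIFN-α biopsies, 1 per animal and week. Doses were given 3 times a week, and biopsies on treatment were taken 6 hours after a dose. The week 0 biopsy followed the first 20 μg dose and the week 7 biopsy the first 100 μg dose. Dose and time on treatment changed together in the wIFN-α group and cannot be told apart.

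Hepatocytes make and secrete most clotting factors, fibrinogen, antithrombin and plasminogen, so the liver holds their transcripts at very high levels. Factor VIII, von Willebrand factor, thrombomodulin, the endothelial protein C receptor and tissue-type plasminogen activator come mainly from endothelial cells, and the A subunit of factor XIII from cells of the monocyte and megakaryocyte lineages. Fibrinogen is an acute phase protein, which the liver makes in larger amounts during inflammation.

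Between 12072840 and 84805845 reads per biopsy lay on genes, with a median of 28754894. As a check of the labels, the summed level of 6 type I IFN-stimulated genes was 9120 to 17400 CPM (counts scaled to library size) in the wIFN-α biopsies of weeks 7, 11 and 15 against 477 to 1230 CPM in placebo, and animal F1013 at week 3, with 744 CPM, lay within the placebo range of that week (260 to 855 CPM). Placebo animal F1016 and wIFN-α animal F1018 at week -3 stood apart: 10.6% and 10.5% of their reads lay on 12 skeletal muscle genes and only 0.00938% and 0.00307% on albumin, where 145 other biopsies had 1.56% to 10.6% on albumin. Biopsies F1021 at week 3 and F1023 at week 0 also held over 5% muscle reads (9.59% and 6.13%), and 53 biopsies in all, from both groups, held more than 0.1%. Placebo animal M1008 was sequenced in 2 runs at week 15 that differed from each other. The 4 biopsies over 5%, F1013 at week 3 and M1008 at week 15 are called the doubted biopsies below, and results are also given without them, or without all 53, where that changed them.

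The clotting system made up a median of 3.3% of all liver reads in the 145 biopsies under the 5% muscle limit. Compared per kilobase of gene model (RPKM, reads per kilobase scaled to library size) over 79 placebo biopsies of 12 animals, medians ran from 0.37 to 1802 RPKM. Fibrinogen alpha chain FGA was highest, with a median of 1802 RPKM (738.2 to 6130 RPKM), followed by antithrombin SERPINC1 (1318 RPKM), fibrinogen gamma chain FGG (1071 RPKM), fibrinogen beta chain FGB (990.3 RPKM), high molecular weight kininogen KNG1 (755.4 RPKM) and prothrombin F2 (588.9 RPKM). The ranges of FGG and FGB overlapped almost completely.

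Of the 32 genes, 17 had a median of at least 100 RPKM, 4 lay between 10 and 100 RPKM (PROC, PROS1, F5 and F7), 7 between 1 and 10 RPKM and 4 under 1 RPKM. The low end held genes with sources outside the hepatocyte: tissue factor F3 had a median of 1.15 RPKM, tissue-type plasminogen activator PLAT 0.8 RPKM, the endothelial protein C receptor PROCR 0.56 RPKM, factor XIII A subunit F13A1 0.49 RPKM and factor VIII F8 0.37 RPKM. These rest on few reads, with a median of 27 reads per placebo biopsy for PROCR, 62 for F13A1 and 96 for F8, against 223493 for FGA.

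**Figure D1:**
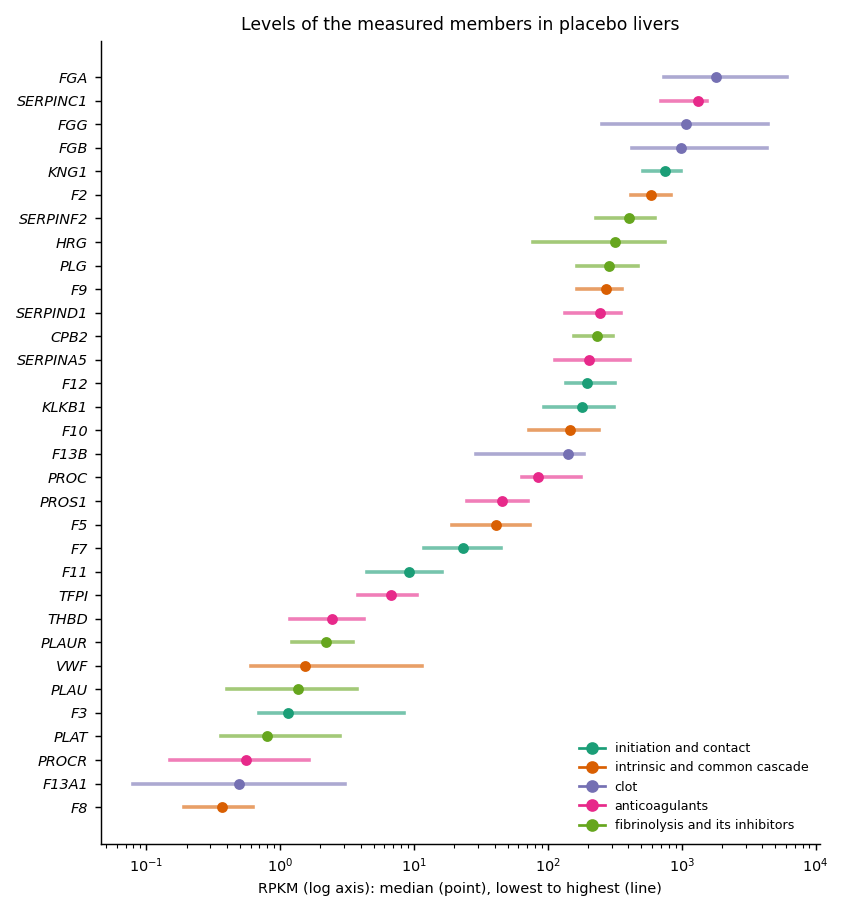
RPKM of the 32 measured genes in 79 placebo biopsies on a log axis; points are medians, lines run from the lowest to the highest biopsy and colours give the role. The 17 genes at or above 100 RPKM stand at the top and F8, F13A1, PROCR and PLAT, each under 1 RPKM, at the bottom.

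The spread between animals also differed from gene to gene. The median standard deviation of log2(CPM + 1) between placebo animals of a week was 0.16 for SERPINC1 and 0.17 for KNG1, but 0.44 to 0.48 for the 3 fibrinogen chains, 0.47 for histidine-rich glycoprotein HRG, 0.61 for von Willebrand factor VWF and 0.79 for F13A1. Across the placebo biopsies the 3 fibrinogen chains moved together (Pearson's r = 0.975 for FGA and FGB, 0.954 for FGA and FGG, 0.972 for FGB and FGG, n = 79 biopsies of 12 animals), while FGA and prothrombin did not (r = 0.083). These values share libraries and animals and are given as a description.

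Treatment effects were estimated at each week as wIFN-α against the placebo animals of the same week and given as log2 fold changes. A gene was called where edgeR's test, adjusted over all genes by Benjamini-Hochberg, was under 0.05 and the change exceeded 1.5-fold. At week -3, before dosing, none of the 32 genes was called by edgeR, DESeq2 or limma-voom (background 0% of 14963 genes; no member had an unadjusted p under 0.05). At week 0, 3 genes were called, all lower in the wIFN-α group, against 18.5% of all genes tested. None was called at week 3 (background 10.8%) by edgeR or limma-voom, and DESeq2 called 1, VWF. By edgeR 3 members had an unadjusted p under 0.05 at week 3, beside 5019 of 15006 genes. At week 7, 3 genes were higher and 3 lower (6 of 32, background 21.6%), at week 11 there were 1 higher and 4 lower (5 of 32, background 20.5%), and at week 15 there were 3 higher and 3 lower (6 of 32, background 22.3%). The share of clotting genes called was thus at or under that of all genes in every week. With the animal as a replicate block in a limma-voom fit of all weeks, the counts were 3 at each of weeks 7, 11 and 15, beside 3014, 3030 and 3351 of 16232 genes.

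The called genes lay mostly at the low end of the level scale. The share of all genes called at least once over the treatment weeks was not counted. Over the 5 treatment weeks 9 of the 32 genes were called at least once: 6 of the 11 genes under 10 RPKM (F3, F8, VWF, F13A1, PLAT and the urokinase receptor PLAUR), none of the 4 between 10 and 100 RPKM, and 3 of the 17 at 100 RPKM or more (FGA, FGB and plasma prekallikrein KLKB1). The median size of the log2 fold change at weeks 0, 3, 7, 11 and 15 was 0.11, 0.11, 0.18, 0.08 and 0.21 for the 17 most abundant genes and 0.23, 0.22, 0.51, 0.45 and 0.59 for the 11 least abundant, whose median SE was also larger in each week. Over all genes tested the median size at these weeks was 0.27, 0.23, 0.28, 0.28 and 0.30. The median log2 fold change of the 32 genes was 0.00 at week 7 and -0.16 at week 15, beside -0.03 and -0.01 over all genes.

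**Figure D2:**
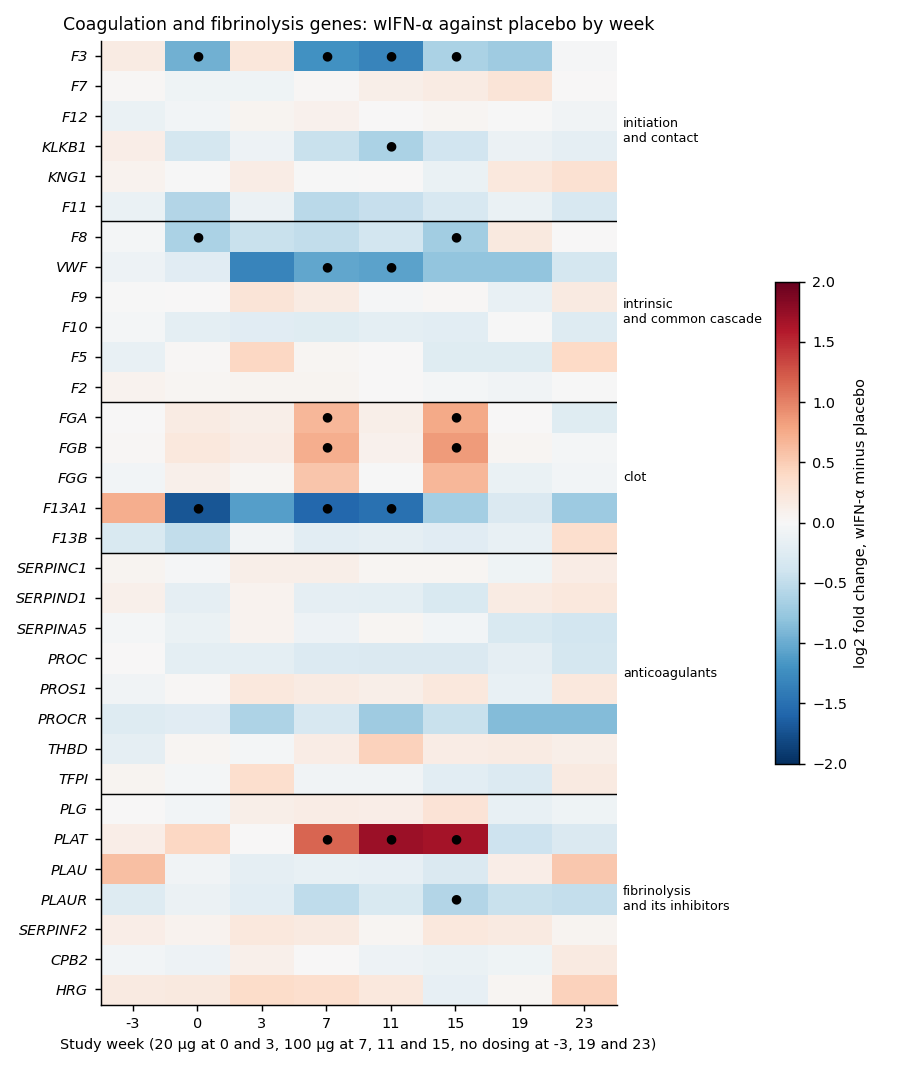
Log2 fold change of wIFN-α against placebo for the 32 measured genes (rows, by role) at the 8 study weeks (columns), red for higher and blue for lower; dots mark an adjusted p under 0.05 with a fold change above 1.5. PLAT stands out in red at weeks 7, 11 and 15, F3, F8, VWF and F13A1 in blue, and weeks -3, 19 and 23 carry no dot.

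Of the initiation and contact genes, F3 and KLKB1 were called. Tissue factor, encoded by F3, is the receptor that starts clotting by binding factor VII. At week 11 it measured 2.922 to 15.8 CPM in placebo (median 4.124, n = 10) and 1.342 to 2.779 CPM in the wIFN-α group (median 2.096, n = 8). All 8 treated animals lay below every placebo animal. The difference was -1.32 on the log2 scale (SE 0.31, 2.5-fold lower, adjusted p = 0.0022), and -0.96 without the placebo animal F1015, the highest of its group.

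F3 was also lower at week 7 (-1.20, SE 0.38, adjusted p = 0.0114), where 9 of 9 treated animals lay below the placebo median and the groups overlapped. Without placebo animal M1009, which reached 24.34 CPM, the week 7 difference was -0.63 and still called. At week 3 F3 was not called (0.22, SE 0.37). At week 15 it was -0.63 (SE 0.18, adjusted p = 0.0104), not called without F1022, M1008 or M1012, and with a replicate block the adjusted p was 0.121. At week 0 it was -0.96 (SE 0.37, adjusted p = 0.0474). Removing any 1 of 14 of the 23 animals ended that call, and the difference was -0.47 without placebo animal M1008 (22.09 CPM). Without the biopsies above 0.1% muscle reads F3 differed by -0.13 at week 0 and -0.39 at week 15, neither called, and by -1.40 at week 7 (adjusted p = 0.0114). At week 11, 8 of 10 placebo and 3 of 8 wIFN-α biopsies were above that limit. This left 2 placebo biopsies, and no fit of that week alone was made. With the muscle genes F3 had r = 0.307 over the 79 placebo biopsies and -0.117 over the 49 low in muscle. F3 followed the summed level of 8 fibroblast and stellate cell genes over the 79 placebo biopsies (r = 0.383, and 0.465 over the 49 with at most 0.1% muscle reads), a list that was lower in wIFN-α at week 7, and its part in the F3 difference was not tested. In bulk biopsies fewer cells of a type and less RNA per cell cannot be told apart, for this gene and those that follow.

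KLKB1 encodes prekallikrein, which activates factor XII on surfaces and releases bradykinin from kininogen. It was lower in the wIFN-α group at all 5 treatment weeks, from -0.10 to -0.64, and called at week 11, with 389.2 to 738.1 CPM in placebo (median 552.8) and 180.8 to 495.6 CPM in wIFN-α (median 381.7). All 8 treated animals lay below the placebo median and 4 below every placebo animal. The call (-0.64, SE 0.17, adjusted p = 0.00568) was lost without M1002 (-0.55), and the replicate block gave an adjusted p of 0.162. Factor XI (F11), the substrate of factor XII, ranged from -0.58 to -0.12. Its adjusted p was 0.036 at week 0 and 0.00038 at week 7, both under the fold limit, and it was called at week 0 by limma-voom. Factor XII (F12, -0.06 to 0.09), kininogen KNG1 (-0.13 to 0.16) and factor VII (F7, -0.09 to 0.17) were called at no treatment week.

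Of the intrinsic and common cascade, F8 and VWF were lower under wIFN-α. Factor VIII is the cofactor of factor IX, and von Willebrand factor carries it in plasma and tethers platelets. F8 at week 0 measured 1.847 to 4.586 CPM in placebo (median 3.425, n = 12) and 1.496 to 3.102 CPM in wIFN-α (median 2.396, n = 11). All 11 treated animals lay below the placebo median, and the groups overlapped. The difference was -0.64 (SE 0.15, 1.55-fold lower, adjusted p = 0.00145).

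F8 was lower at all 5 treatment weeks, between -0.37 and -0.70, and called again at week 15 (-0.70, SE 0.18, adjusted p = 0.00419), when placebo had a median of 3.81 CPM and wIFN-α 1.907 CPM. At weeks 3 and 7 the adjusted p was 0.0124 and 0.00695 but the fold change stayed under 1.5, and at week 11 the adjusted p was 0.101. After dosing ended F8 differed by 0.19 at week 19 (SE 0.17) and 0.01 at week 23 (SE 0.20). The effect off treatment minus that of week 15 was 0.83 (SE 0.21, adjusted p = 0.00144), and the F8 level of all 6 wIFN-α animals rose after week 15, against 3 of 8 placebo animals. Within each of the 7 lane numbers in the sample titles, over weeks 7, 11 and 15, F8 was lower in wIFN-α (-0.58 to -0.01 on the log2(CPM + 1) scale). A lane number can pool more than 1 sequencing lane, since different animals share barcodes within lane numbers. Lane numbers 5 and 8 held 1 wIFN-α biopsy each. Here and below, biopsies sequenced under more than 1 lane number were not in the comparisons within lane numbers. An animal could enter a lane number with biopsies of more than 1 week.

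VWF at week 7 measured 8.931 to 23.12 CPM in placebo (median 14.88, n = 12) and 3.473 to 10.94 CPM in wIFN-α (median 6.978, n = 9). All 9 treated animals lay below the placebo median and 7 below every placebo animal. The difference was -1.03 (SE 0.20, 2.05-fold lower, adjusted p = 0.000205), and -0.98 with an adjusted p of 0.0521 with a replicate block. Week 11 gave -1.07 (SE 0.34, adjusted p = 0.0196), which was -0.85 with an adjusted p of 0.0622 when animal M1004 was included. At week 11, 8 of the 10 placebo and 3 of the 8 wIFN-α biopsies held more than 0.1% muscle reads. That left 2 placebo biopsies, so no fit of that week alone was made without the muscle-holding biopsies. Week 15 gave -0.79 (adjusted p = 0.0633).

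At week 3 the VWF difference depended on the biopsies that held muscle. It measured a median of 34.33 CPM in placebo and 9.165 CPM in wIFN-α (-1.32, adjusted p = 0.0694), but 8 of the 12 placebo biopsies of that week and 2 of the 9 wIFN-α biopsies held more than 0.1% muscle reads. Without those the week 3 difference was 0.16 (SE 0.42), while at week 7 it was -1.03 (adjusted p = 0.000904). The high dose effect minus the low dose effect, -0.19 in all biopsies, was then -1.01 (SE 0.29, adjusted p = 0.0411). That dose test rested on 2 placebo biopsies at week 11 and 4 at week 3. Over the 79 placebo biopsies VWF followed the summed level of 8 fibroblast and stellate cell genes (r = 0.789) and of the muscle genes (r = 0.684), and over the 49 with at most 0.1% muscle reads these were 0.378 and 0.187. At week 7 the fibroblast list itself was lower in wIFN-α, with 360 to 823 CPM against 511 to 2390 CPM in placebo and 5 of its 8 genes called lower (log2 difference -0.88, exact permutation p = 0.00208, adjusted over 64 list comparisons 0.0121), and its part in the VWF difference was not tested.

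Endothelial markers moved in both directions. The summed level of 12 endothelial genes was 179 to 367 CPM in placebo and 189 to 330 CPM in wIFN-α at week 7, with FLT1 and LYVE1 called higher and KDR, TEK and EMCN lower (log2 difference -0.13, exact permutation p = 0.345). At week 0 it was 181 to 422 CPM against 153 to 334 CPM, again with 2 higher and 3 lower (-0.31, permutation p = 0.0326, adjusted 0.121). None of the 12 was at 0 in placebo, and the part of these cells in the F8 and VWF differences was not tested. Over the 49 placebo biopsies low in muscle, F8 followed this list (r = 0.599), and F8 and VWF did not follow each other (r = 0.04).

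The hepatocyte-made factors of the cascade were not called. Prothrombin (F2) stayed between -0.04 and 0.06, factor IX (F9), which activates factor X, between -0.02 and 0.26, and factor X (F10), which cuts prothrombin, between -0.24 and -0.19. Factor V (F5), the cofactor of factor X, ranged from -0.24 to 0.42.

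**Figure D3:**
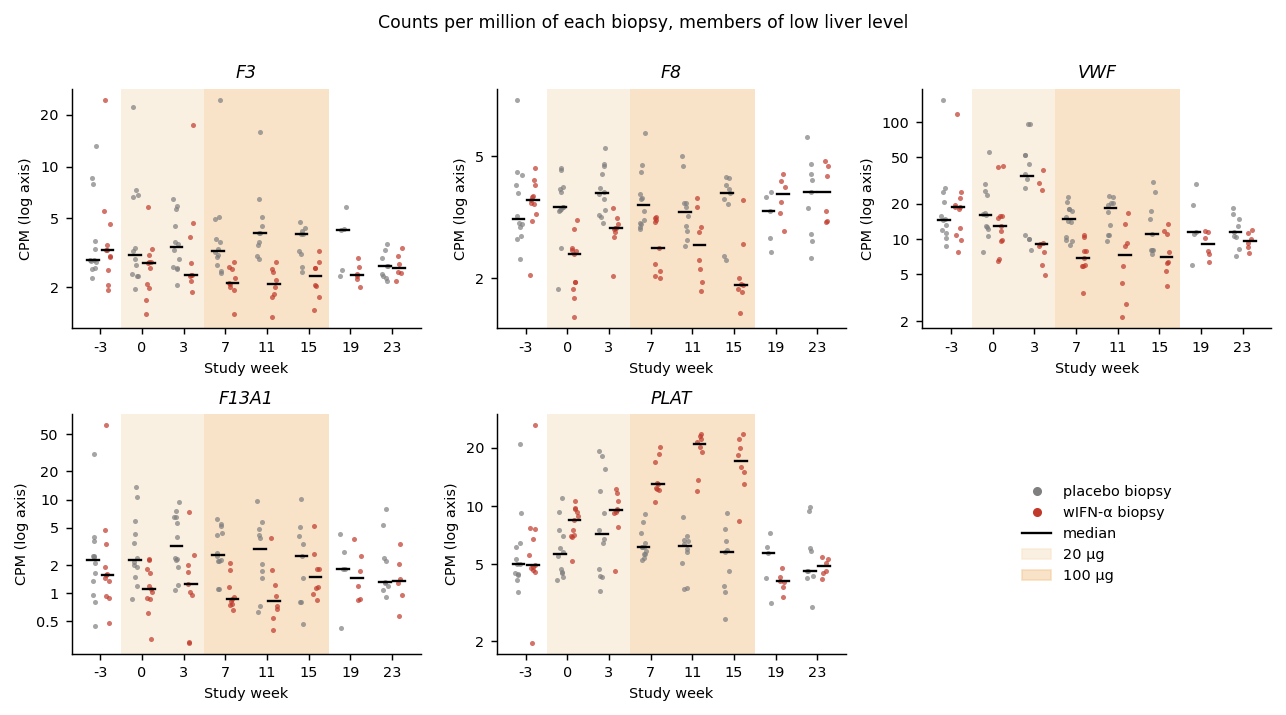
CPM of each biopsy (points, log axis) for F3, F8, VWF, F13A1 and PLAT by study week, placebo in grey and wIFN-α in red with black lines at the medians; shading marks 20 μg and 100 μg weeks. PLAT in wIFN-α separates from placebo at weeks 7 and 11 and overlaps it at week 19, while F3 at week 11 lies below placebo in all 8 treated animals.

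Among the clot genes, with all biopsies kept, FGA and FGB were called higher at weeks 7 and 15 and FGG at no week. F13A1 was called lower at weeks 0, 7 and 11. FGA at week 7 measured 5360 to 12060 CPM in placebo (median 7527, n = 12) and 9264 to 18520 CPM in wIFN-α (median 11990, n = 9). All 9 treated animals lay above the placebo median and 4 above every placebo animal. The difference was 0.66 (SE 0.16, 1.58-fold higher, adjusted p = 0.00159).

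FGB at week 7 measured 2006 to 5160 CPM in placebo (median 3041) and 3610 to 9824 CPM in wIFN-α (median 4812). Again 9 of 9 treated animals lay above the placebo median and the groups overlapped. The difference was 0.72 (SE 0.20, 1.65-fold higher, adjusted p = 0.00543), and FGG differed by 0.55 (SE 0.19, adjusted p = 0.0207), under the fold limit.

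At week 15 FGA differed by 0.76 (SE 0.26, adjusted p = 0.0276) and FGB by 0.85 (SE 0.29, adjusted p = 0.025), with FGG at 0.67 (adjusted p = 0.0715). Between these weeks, at week 11, the 3 chains differed by 0.12, 0.08 and 0.00. The week 15 values leaned on few animals. F1013 had 20280 CPM of FGA and F1014 13270 CPM, both above the placebo maximum of 10110 CPM, and without F1013 the FGA difference was 0.50 (adjusted p = 0.0867) and without F1014 0.67 (adjusted p = 0.0622). The FGA call was also lost without placebo animals F1016 or F1021, and the FGB call without F1013 (0.55, adjusted p = 0.0814) or F1014 (0.74, adjusted p = 0.058). At week 7 both calls were lost without F1020, whose removal left 0.57 for each. In 1 fit of all weeks the adjusted p at week 7 was 0.0619 for FGA and 0.0567 for FGB. With a replicate block it was 0.347 and 0.366 at week 7 and 0.356 and 0.387 at week 15. Within the 7 lane numbers FGA and FGB were higher in wIFN-α in 5 each and lower in 2.

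Fibrinogen also fell within the placebo group. In placebo the median of FGA was 6294 CPM at week -3, 14840 CPM at week 0, 10080 CPM at week 3, 7527 CPM at week 7, 7184 CPM at week 11, 5695 CPM at week 15, and 3578 and 5183 CPM at weeks 19 and 23. The mean of weeks 7, 11 and 15 against that of weeks 0 and 3 was -0.85 for FGA (SE 0.17, adjusted p = 2.92e-05), -0.96 for FGB (SE 0.19, adjusted p = 1.34e-05) and -0.97 for FGG (SE 0.20, adjusted p = 4.83e-05). All 12 placebo animals and all 9 wIFN-α animals with both periods fell in their own FGA, FGB and FGG levels. In the wIFN-α group FGA fell from a median of 18890 CPM at week 0 to 11990 CPM at week 7 and 8614 CPM at week 15, so both groups declined.

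Placebo over time called 7 of the 32 genes (background 13.1% of all genes), 1 higher and 6 lower. Beside fibrinogen, SERPINA5, the protein C inhibitor, fell (-0.64, adjusted p = 7.24e-05), VWF fell (-0.85, adjusted p = 0.00221) and F5 rose (0.64, adjusted p = 0.000383). PROCR also fell (-0.62, adjusted p = 0.00649). It was not called without the doubted biopsies, nor without those above 0.1% muscle reads (-0.53, adjusted p = 0.132). Without the biopsies above 0.1% muscle reads the VWF value turned to 0.18 and F5 was at 0.31, neither called. F3 was then called higher (0.66, adjusted p = 0.0288), and FGA, FGB, FGG and SERPINA5 were at -1.23, -1.48, -1.50 and -0.76, called as before. This left 4 placebo biopsies at week 3 and 2 at week 11.

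**Figure D4:**
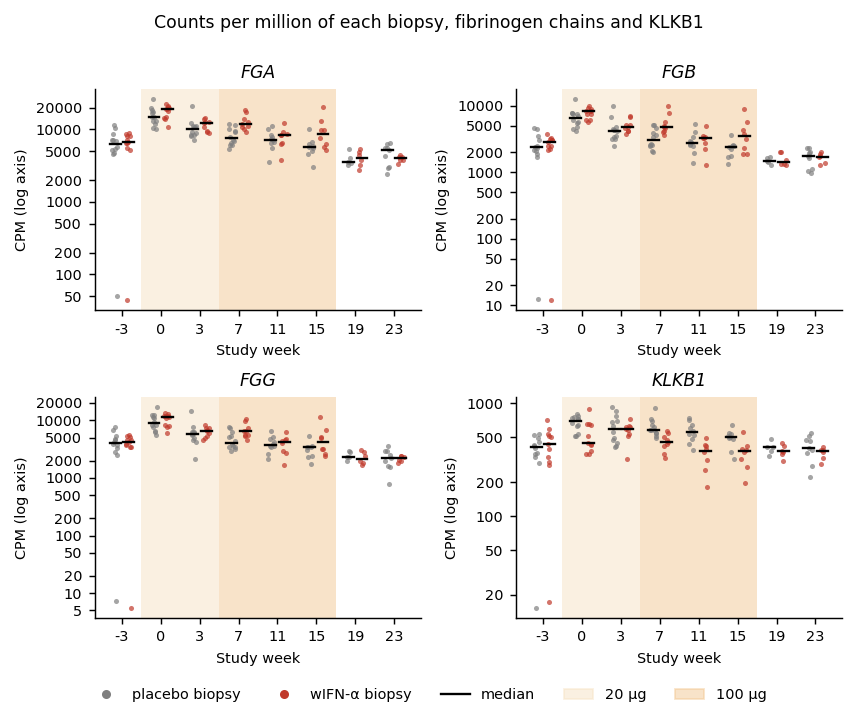
CPM of each biopsy (points, log axis) for FGA, FGB, FGG and KLKB1 by study week, placebo in grey and wIFN-α in red, black lines at the medians, shading for the 20 μg and 100 μg weeks. The 3 fibrinogen chains decline from week 0 in both groups. At week 7 all 9 wIFN-α animals lie above the placebo median of each chain, and the groups overlap. For KLKB1 all 9 lie below the placebo median at week 7, 6 of them below every placebo animal. The 2 points far below the rest at week -3 are F1016 and F1018.

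F13A1 encodes the catalytic subunit of factor XIII, which crosslinks fibrin, and F13B its carrier subunit. F13A1 at week 7 measured 1.116 to 6.157 CPM in placebo (median 2.578, n = 12) and 0.6568 to 2.125 CPM in wIFN-α (median 0.8593, n = 9). All 9 treated animals lay below the placebo median and 6 below every placebo animal. The difference was -1.58 (SE 0.32, 2.99-fold lower, adjusted p = 0.000331), and -1.79 (adjusted p = 0.000248) without the biopsies above 0.1% muscle reads. It stayed called under each of the alternatives run at week 7, the replicate block included (adjusted p = 0.0301).

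At week 0 F13A1 differed by -1.70 (SE 0.44, adjusted p = 0.00352), and by -0.87 (adjusted p = 0.058) without the muscle-holding biopsies. At week 11 it differed by -1.49 (SE 0.54, adjusted p = 0.0379), which lost its call without any 1 of 10 of the 18 animals (-1.17, adjusted p = 0.0813 without F1015) and had an adjusted p of 0.0535 with a replicate block. No fit of week 11 alone was made without the muscle-holding biopsies. At week 15 F13A1 was not called (-0.68, SE 0.55). F13B, made in hepatocytes, ranged from -0.49 to -0.06 over the treatment weeks with no call. In placebo the subunits were uncorrelated (r = -0.047).

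F13A1 followed the fibroblast and stellate list over the placebo biopsies (r = 0.652, and 0.491 over the 49 low in muscle). That list was lower in wIFN-α at week 7, and its part in the F13A1 difference was not tested. With a list of platelet genes r was 0.132 over all 79 placebo biopsies and 0.434 over the 49. For the monocyte and macrophage list it was 0.276 and 0.325, and for the muscle genes 0.52 and 0.27. For the endothelial list it was 0.289 and 0.251, and for the hepatocyte genes -0.32 and -0.101. The 10 monocyte and macrophage genes summed to 267 to 468 CPM in placebo and 322 to 419 CPM in wIFN-α at week 7 (log2 difference 0.04, exact permutation p = 0.637), with 1 gene called higher and 3 lower, and none at a median of 0 in placebo. Of the platelet list, 6 of 7 genes had values, with glycoprotein GP9 at a median of 0 in placebo. That list was higher in wIFN-α at week 7, with 51.2 to 68.7 CPM against 21.1 to 32.4 CPM (exact permutation p = 6.8e-06, the smallest these groups can give, adjusted 0.000218). PPBP (2.03) and PF4 (1.07), chemokines of platelet granules, were called higher, and ITGA2B, a platelet integrin subunit, was not (0.09).

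None of the 8 measured anticoagulants was called at any treatment week by edgeR, DESeq2 or limma-voom. At week 7, 4 of the 8 had an unadjusted p under 0.05 by edgeR, beside 7894 of 14868 genes. Antithrombin SERPINC1, the main inhibitor of thrombin, stayed between -0.02 and 0.12, heparin cofactor II (SERPIND1) between -0.31 and 0.08, and SERPINA5 between -0.14 and 0.06. Protein C (PROC), which thrombin bound to thrombomodulin activates, was at -0.29 to -0.19 over the 5 treatment weeks, with an adjusted p of 0.00196 at week 7 and a fold change under the limit. Its cofactor protein S (PROS1) was between 0.02 and 0.22.

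Thrombomodulin (THBD) ranged from -0.04 to 0.45, tissue factor pathway inhibitor (TFPI) from -0.21 to 0.34 and PROCR, the receptor that presents protein C, from -0.71 to -0.23. The PROCR differences from placebo were lowest after treatment. Against week 15, own PROCR levels rose in 3 and fell in 3 of 6 wIFN-α animals (median 0.03 on the log2(CPM + 1) scale). In placebo they rose in 6 of 8 animals (median 0.28). At week 19 the 5 placebo animals had 0.3923, 0.7358, 0.9755, 1.052 and 1.086 CPM against 0.2935 to 0.5816 CPM in the 6 wIFN-α animals, and at week 23 placebo had 0.6723 to 1.215 CPM (n = 9) against 0.3143 to 0.6731 CPM (n = 6). At week 19, 4 of 5 placebo animals lay above every treated animal, with F1016 the exception, and at week 23 8 of 9. The pooled difference off treatment was -0.86 (SE 0.30, adjusted p = 0.054) and rests on 8 to 67 reads per biopsy. It was called by DESeq2 and, by edgeR, without the biopsies above 0.1% muscle reads (-0.82, adjusted p = 0.0498). These fits treated the week 19 and week 23 biopsies of an animal as independent.

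Among the fibrinolytic genes PLAT was called higher at weeks 7, 11 and 15. It encodes tissue-type plasminogen activator, which converts plasminogen to plasmin on fibrin. At week 7 PLAT measured 5.258 to 9.048 CPM in placebo (median 6.122, n = 12) and 10.45 to 20.19 CPM in wIFN-α (median 13.01, n = 9). Every treated animal lay above every placebo animal. The difference was 1.17 (SE 0.12, 2.25-fold higher, adjusted p = 4.45e-08).

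At week 11 PLAT measured 3.707 to 8.814 CPM in placebo (median 6.18, n = 10) and 12 to 23.64 CPM in wIFN-α (median 20.89, n = 8). The groups again did not overlap, and the difference was 1.72 (SE 0.17, 3.28-fold higher, adjusted p = 1.09e-07). At week 15 it was 1.67 (SE 0.24, 3.18-fold higher, adjusted p = 2.7e-05), with 7 of 8 treated animals above every placebo animal. The exception was F1013, with 8.384 CPM the lowest PLAT of its group at week 15 and, with 20280 CPM, the highest FGA.

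PLAT kept its call at weeks 7, 11 and 15 under every alternative run there, between 1.07 and 2.03 on the log2 scale. It was higher in wIFN-α within each of the 7 lane numbers (0.87 to 2.16 on the log2(CPM + 1) scale). After dosing ended PLAT was not called (-0.41, SE 0.20 at week 19 and -0.28, SE 0.24 at week 23), with 3.388 to 4.751 CPM at week 19 against 3.142 to 7.228 CPM in placebo. The effect off treatment minus that of week 15 was -1.98 (SE 0.35, adjusted p = 1.92e-06). All 6 wIFN-α animals fell in their own PLAT level after week 15, against 2 of 8 placebo animals.

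PLAT was the gene called for a difference between doses (1 of 32, background 5.5%). The high dose effect exceeded the low dose effect by 1.3 (SE 0.22, adjusted p = 2.17e-05), and by 1.44 with week 15 alone as the high dose. All 9 wIFN-α animals rose in their own level between the periods, by 0.20 to 1.17 on the log2(CPM + 1) scale, against 4 of 12 placebo animals. At the low dose PLAT was not called, with 0.41 at week 0 (SE 0.16, adjusted p = 0.0556) and 0.01 at week 3 (SE 0.29). Placebo biopsies of week 3 reached 19.34 CPM of PLAT, and without the biopsies above 0.1% muscle reads PLAT was called at both low dose weeks, with 0.72 at week 0 (SE 0.14, adjusted p = 0.00109) and 1.05 at week 3 (SE 0.21, adjusted p = 0.0194). In the biopsies under that limit the dose difference was 0.78 (SE 0.22, adjusted p = 0.0302), with 2 placebo biopsies at week 11 and 4 at week 3. Over 79 placebo biopsies PLAT followed VWF (r = 0.777) and the fibroblast and stellate list (r = 0.767), and over the 49 low in muscle r was 0.513 and 0.492, whereas at weeks 7 and 11 of treatment PLAT was higher and VWF lower.

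The other fibrinolytic members were mostly not called. Plasminogen (PLG) itself ranged from -0.06 to 0.27 and urokinase (PLAU), the other plasminogen activator, from -0.29 to -0.07, with no call. The urokinase receptor PLAUR was lower at all 5 treatment weeks and called at week 15 (-0.59, SE 0.18, adjusted p = 0.0118), with 3.307 to 6.814 CPM in placebo (median 4.46) and 1.441 to 4.543 CPM in wIFN-α (median 2.945). Of the 8 treated animals 7 lay below the placebo median. That fold change stood just past the limit of 1.5 and fell under it without F1018, F1019, M1001, M1003 or M1012. PLAUR was not called by limma-voom, nor without the biopsies above 0.1% muscle reads (-0.51, adjusted p = 0.0705). The inhibitors of plasmin and of its formation were not called, with antiplasmin (SERPINF2) between 0.05 and 0.21, the carboxypeptidase CPB2, which trims plasminogen binding sites from fibrin, between -0.14 and 0.10, and HRG, which binds plasminogen, between -0.17 and 0.37.

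**Figure D5:**
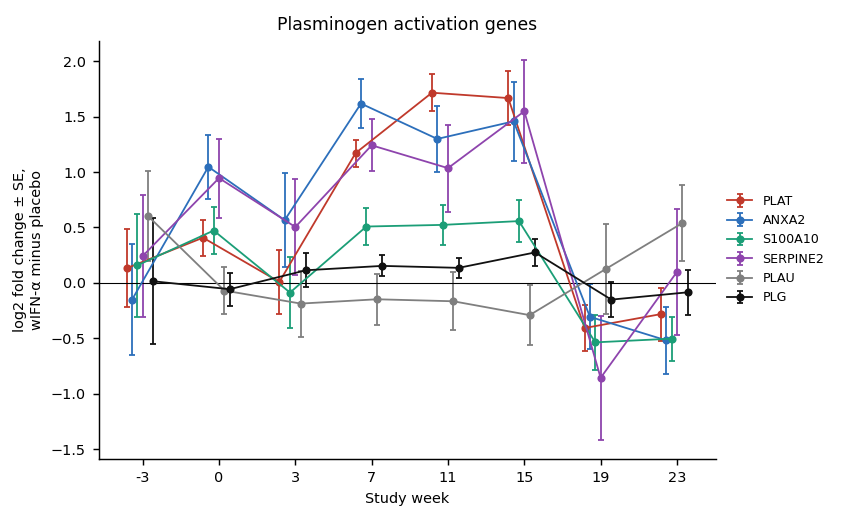
Log2 fold change ± SE of wIFN-α against placebo at the 8 study weeks for PLAT, PLAU and PLG with 3 other genes of plasminogen activation or its inhibition (ANXA2, S100A10, SERPINE2). PLAT, ANXA2 and SERPINE2 rise to between 1.04 and 1.72 at weeks 7 to 15 and lie near or under 0 at weeks 19 and 23, while PLAU and PLG stay between -0.29 and 0.27 on treatment.

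A list of 26 further genes of the system, of which 24 were tested at each week, gave 2, 1, 3, 2 and 5 called genes at weeks 0, 3, 7, 11 and 15, in each week a smaller share than the 18.5%, 10.8%, 21.6%, 20.5% and 22.3% of all genes. ANXA2, the annexin that binds PLAT and plasminogen on cell surfaces, was higher at weeks 0, 7, 11 and 15 by 1.05, 1.62, 1.3 and 1.46 (adjusted p = 0.00603, 2.3e-06, 0.0019 and 0.00309). At week 7 it measured 72.01 to 134.1 CPM in wIFN-α and 20.17 to 100.3 CPM in placebo. Its partner S100A10 was between -0.09 and 0.56 on treatment, with adjusted p-values of 0.0144, 0.0288 and 0.025 at weeks 7, 11 and 15 and fold changes under the limit. SERPINE2, an inhibitor of thrombin and of plasminogen activators, was higher at the same 4 weeks (0.95, 1.24, 1.04 and 1.55), from a low level of 0.5288 to 2 CPM in placebo at week 7.

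At week 15 the protease inhibitors A2M (0.91, adjusted p = 0.00074) and SERPING1 (0.63, adjusted p = 0.00152) and the plasma protease HABP2 (0.60, adjusted p = 0.0123) were higher, and at week 7 the thrombin receptor F2RL2 (0.67, adjusted p = 0.00773). VKORC1L1, a paralog of the vitamin K recycling enzyme, was lower at week 3 (-0.68, adjusted p = 0.00651). Of the 25 genes tested for the effect off treatment minus that of week 15, 8 were called, beside 27.8% of all genes. Of these, 6 had fallen against placebo, among them ANXA2 (-1.84, adjusted p = 0.00426), SERPINE2 (-1.90, adjusted p = 0.0182) and A2M (-1.28, adjusted p = 0.0224), and 2 had risen.

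Off treatment, none of the 32 clotting genes was called at week 19 or 23 by edgeR, DESeq2 or limma-voom (background 0% at both by edgeR). By edgeR 5 and 2 members had an unadjusted p under 0.05, beside 1859 of 14715 and 2416 of 14956 genes. DESeq2 called 89 of 14715 genes at week 19 and 53 of 14956 at week 23. For both weeks together edgeR called none (background 2.54%), and DESeq2 called PROCR. In that edgeR test 2 members had an unadjusted p under 0.05, beside 3897 of 16232 genes. The effect off treatment minus that of week 15 was called for 2 of 32 (background 27.8%), F8 and PLAT. Without the doubted biopsies it was called for 6, then also KNG1, FGA, FGB and SERPIND1, beside 5576 of 16183 genes in all. FGA at weeks 19 and 23 against week 15 differed by -0.85 (adjusted p = 0.111), and by -1.03 (adjusted p = 0.0118) without the biopsies above 0.1% muscle reads.

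The summed level of 14 genes of hepatocytes, the source of most members, gave no difference past the test at any treatment week (permutation p from 0.136 to 0.844). Albumin, with a median of 39200 CPM over the 79 placebo biopsies, weighed most in this sum. Gene by gene, the median log2 fold change of the 14 was 0.00, -0.07, -0.17, -0.22 and -0.21 at weeks 0, 3, 7, 11 and 15. Over all genes it was -0.01, -0.04, -0.03, -0.03 and -0.01. At week 7 it was 54200 to 86100 CPM in placebo and 51300 to 82600 CPM in wIFN-α (log2 difference -0.05, exact permutation p = 0.571), and at week 15 51500 to 74000 CPM against 40300 to 82400 CPM (-0.10, exact permutation p = 0.415), with 1 of the 14 called lower at week 15 and none at week 7. At week -3 the 2 biopsies that stood apart held 5740 and 2780 CPM.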

How the data were processed

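Liver RNA of 164 biopsies, sequenced in 203 runs, was analysed. The authors made poly(A) libraries, mapped paired-end reads with Bowtie2 to their woodchuck transcriptome assembly and counted them with SAMtools. The deposited expected counts per gene are not normalized (118 of 3368022 nonzero entries were fractions), and the RPKM values, also deposited by the authors, are scaled by gene length and library size. Genes not listed in a run were taken as 0, runs of a biopsy were summed and rounded, and the virus entry was left out. RPKM was averaged over runs and used only for levels between genes. The 7 biopsies of M1004, which the study set aside, and 8 of other weeks were left out of the 149 compared. Study weeks are used, on which week 0 is label week 1.

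Counts were tested with edgeR 4.0.16 (R 4.3.3; TMM, low count filter, quasi-likelihood test, Benjamini-Hochberg adjustment over all genes), 1 fit per week, and 1 fit of all weeks for differences between effects. Calls were made at an adjusted p below 0.05 with more than a 1.5-fold change, whereas tests of the high minus low dose effect (weeks 7, 11 and 15 against 0 and 3) and of off treatment minus week 15 used only the adjusted p. CPM are TMM-normalized. The scripts were tested on simulated data. Alternatives used DESeq2 1.42.0, limma 3.58.1, other scalings and filters, and biopsies left out. Lists of markers were compared as log2(summed CPM + 1) by two-sided permutation, exact or, where both groups had 10 or more animals, with 100000 resamples. Named with values were members called at 2 or more treatment weeks, off treatment or in a difference test, shown at the treatment week with the smallest adjusted p; single-week calls were added after their values were seen. The members and lists were chosen with earlier results of these data known. Biopsies of the same animal deviated together (median correlation 0.381 over 185 pairs, against -0.0355 for 1828 pairs of other animals), so the animal served as a replicate block in alternatives. Gene positions and sequences were not used here. Python 3.11.15, numpy 2.4.6, scipy 1.17.1, pandas 2.3.3 and matplotlib 3.10.9 were used.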

Additional observations from a re-analysis of the deposited data

Results flagged for a closer look

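F3 in placebo animal F1015 at week 11 (15.8 CPM) lay far above the other 9 placebo animals of that week, with a gap of 0.726 of the group's range. Among 7 groups of this size looked at, 1 such sample was seen, where chance gives about 1 in 20 groups. The PLAT effect differed between the high and the low dose by 1.3 on the log2 scale (SE 0.22, adjusted p = 2.17e-05 by edgeR), and between off treatment and week 15 by -1.98 (SE 0.35, adjusted p = 1.92e-06). The F8 effect differed between off treatment and week 15 by 0.83 (SE 0.21, adjusted p = 0.00144). Animal M1004, left out of the comparisons, received wIFN-α and had 17.8 CPM of PLAT at week 7 (scaled by library size), above the highest of 12 placebo animals (9.17 CPM).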

How the results depend on the processing

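Of 692 alternative values of 30 single results, 606 kept their call, 85 lost it with the same direction, and 1 reversed: VWF in placebo over time, 0.18 without biopsies above 0.1% muscle reads. That limit, and leaving out animals at weeks 7 and 11, were chosen after seeing the data. At week 11 the limit left 2 placebo biopsies, and no fit of that week alone was made. These 2 stayed in the fit of all weeks. Leaving out 1 animal at a time, the number of clotting genes called ranged from 2 to 4 at week 0, 4 to 7 at week 7, 3 to 5 at week 11, 4 to 7 at week 15 and 0 to 0 at week 19. The numbers without an animal at week 11 included 3 without M1002. At week 0, 5 were called by library size alone and 1 with a fold change above 2, beside 3186 and 1269 of 14700 genes. A fold change above 2 also left 1 at week 15, beside 1709 of 14943 genes. At week 3, 1 was called by DESeq2, with M1004, in 1 fit of all weeks and with a replicate block (VWF each time), and 1 without biopsies above 0.1% muscle reads (PLAT). In the same order, 1872 of 15006, 1807 of 14947, 2065 of 16232, 1726 of 16232 and 721 of 14893 genes were called in all. With a replicate block (animal as block, estimated correlation), 3 were called at each of weeks 7, 11 and 15, beside 3014, 3030 and 3351 of 16232 genes. With M1004 included 3 were called at week 11, beside 3027 of 14884 genes. With all biopsies kept, a replicate block changed no call in the tests between effects. Without biopsies above 0.1% muscle reads, 2 were called for dose, 1 off treatment and 6 for off treatment minus week 15, beside 442, 345 and 4726 of 16224 genes. Without the doubted biopsies 1 was called off treatment, as by DESeq2, and 6 for off treatment minus week 15, or 7 with the replicate block as well. Of 16183 genes, 598, 5576 and 6684 were called in these settings without the doubted biopsies, and DESeq2 called 525 of 16232 off treatment. Scaling by library size alone moved the median of all genes to -0.19 at week 0 and -0.13 at week 7, and turned no direction of a called gene. The cause of these changes was not tested. Depth limited F8, F13A1 and PROCR, with a median of 96, 62 and 27 reads in placebo.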
